A study of Mus musculus with 7 samples.

Results

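Molecular chaperones are proteins that bind other proteins while these fold, refold, assemble or are handed on for degradation, and 51 mouse genes of this machinery were followed here among the 55484 rows of the count table. The members were chosen by name, as genes of 3 cell compartments: 29 genes of the cytosol and nucleus, 4 of the mitochondria and 18 of the endoplasmic reticulum (ER), counting the transcription factors that control them with the compartment they serve. All 51 were listed in the count table and all 51 passed the filter on low counts.

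RNA was measured in mouse embryonic fibroblasts (MEFs, 4 libraries), which are connective tissue cells grown from embryos, and in mouse embryonic stem cells (mESCs, 3 libraries), which are pluripotent cells grown from the early embryo. The study gives all its MEFs and mESCs as of C57/Bl6 background, in its account of the chromatin libraries. It names no treatment and no time point for the samples used here. The study describes sorting of Thy1+ MEFs and of Thy1-/Ssea1+/Epcam+ mESCs for its chromatin libraries and calls its transcriptional data an existing data set of the laboratory, so whether the RNA came from sorted cells is not given, and neither is the number of embryos or of stem cell lines. The extraction protocol in the labels names another cell type, blood stem cells of young and aged mice, and the cell types were therefore checked against marker genes.

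Library totals ran from 6528643 to 11441278 counts, and 3 counts, taken as the floor, correspond to between 0.288 and 0.477 CPM (counts per 1000000 counts of a library) depending on the library. Floors of this kind take account of counting error alone. CPM values are counts divided by the library size after scaling with the TMM method of edgeR. All 10 pluripotency markers were higher in mESCs, with a summed 42.9 to 47.3 CPM in the MEF libraries and 3372 to 3640 CPM in the mESC libraries. All 10 fibroblast markers were lower in mESCs, with sums of 22601 to 39067 CPM in MEFs and 155 to 178 CPM in mESCs. Of 10 blood cell markers, 6 were tested, with sums of 19.1 to 40.0 CPM in MEFs and 103 to 109 CPM in mESCs, where Laptm5 and Kit were higher; the leukocyte marker Ptprc had 0.0959 to 2.04 CPM in MEFs and at most 0.114 CPM in mESCs, and the macrophage marker Adgre1 was at 0 in every mESC library. Summed markers ranged from 17.0 to 26.2 CPM in MEFs and 32.4 to 56.0 CPM in mESCs for endothelium, from 106 to 130 and 129 to 163 CPM for epithelium, and from 32.4 to 44.2 and 13.2 to 20.7 CPM for muscle. In bulk RNA of this kind, fewer cells of a type and less RNA per cell cannot be told apart.

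Chaperones fall into families that work in relays. HSP70 proteins bind short exposed stretches of unfolded chains and are driven by J-domain partners and nucleotide exchange factors, HSP90 proteins act later on kinases and hormone receptors with the help of co-chaperones, small heat shock proteins hold unfolded chains without using ATP, and the ring-shaped TRiC chaperonin encloses actin, tubulin and other substrates. The ER and the mitochondria each have their own HSP70 and HSP90 relatives, and the ER adds lectin chaperones for glycoproteins and protein disulfide isomerases. The heat shock response, driven by HSF1, raises the cytosolic set, and the unfolded protein response (UPR), driven by XBP1, ATF6 and ATF4, raises the ER set. Embryonic stem cells grow and divide fast, and HSP90 is known to stabilize pluripotency factors in them, while fibroblasts secrete collagen and other matrix proteins that pass through the ER.

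The members divided by compartment. The libraries are called MEF 11.4, MEF 7.31, MEF 9.18, MEF 6.53, mESC 8.19, mESC 8.06 and mESC 7.46 after their total counts divided by 1000000, and each list of values below is in this order. The CPM of the 29 cytosolic members summed to 9747, 9866, 7750 and 8395 in MEFs and to 13483, 14284 and 14681 in mESCs. Those of the 18 ER members summed to 10372, 10216, 8965 and 8430 CPM in MEFs and to 4000, 4062 and 3802 CPM in mESCs. The 4 mitochondrial members summed to 2352, 1657, 1405 and 1565 CPM in MEFs and to 1862, 1871 and 2222 CPM in mESCs. Every mESC library thus held more cytosolic and less ER chaperone RNA than any MEF library, while the mitochondrial sums overlapped.

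**Figure D1:**
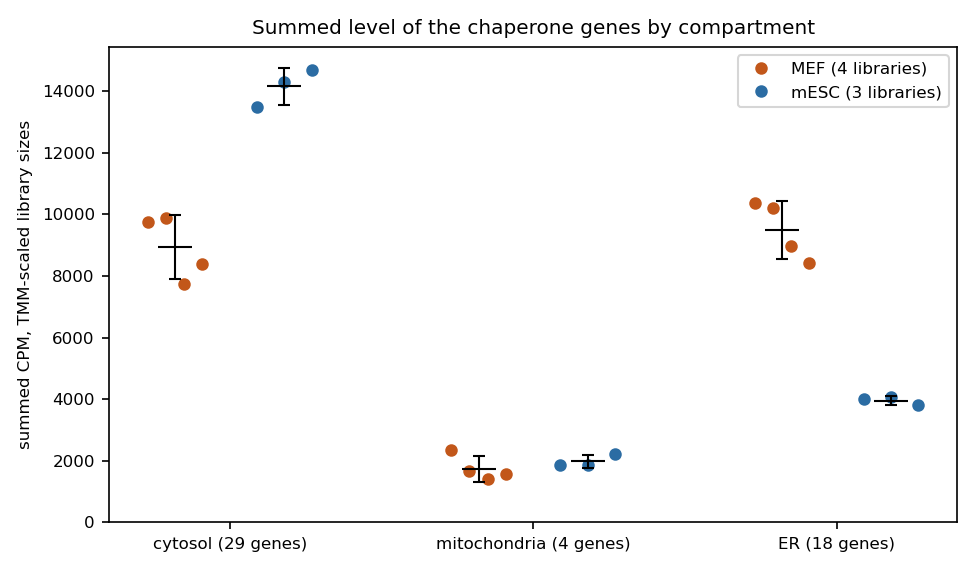
Summed level of the chaperone genes of each compartment (vertical axis, CPM over TMM-scaled library sizes) in 4 MEF and 3 mESC libraries (points), with the mean and SD of each cell type (bars). The mESC points lie above the MEF points for the cytosol (13483 to 14681 against 7750 to 9866 CPM), below them for the ER (3802 to 4062 against 8430 to 10372 CPM) and among them for the mitochondria.

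The cytosolic sum averaged 8939 ± 1037 CPM in MEFs and 14149 ± 610 CPM in mESCs (SD, n = 4 and 3), 1.58 times as much. The ER sum averaged 9496 ± 950 and 3955 ± 136 CPM, 0.416 times as much in mESCs as in MEFs, and the mitochondrial sum 1745 ± 418 and 1985 ± 205 CPM. Over all 51 members the totals were 20180 ± 2246 CPM in MEFs and 20089 ± 689 CPM in mESCs, near each other after TMM scaling. As a share of the unscaled library totals the members made up 1.65 to 2.05% in MEFs and 2.18 to 2.35% in mESCs, with every mESC library above every MEF library. The ratio of the cytosolic to the ER sum, which does not depend on how libraries were scaled, was 0.940, 0.966, 0.864 and 0.996 in MEFs and 3.37, 3.52 and 3.86 in mESCs. Hsp90ab1 alone made up 33.5 to 40.2% of the cytosolic sum in MEFs and 31.2 to 37.2% in mESCs, and Hsp90b1 made up 21.4 to 25.2% and 24.4 to 28.7% of the ER sum. Without the 3 HSP90 genes of cytosol and ER the ratio was 0.601 to 0.748 in MEFs and 2.03 to 2.55 in mESCs, so that the libraries stayed apart. Without Hsp90aa1 and Hsp90ab1, an alternative chosen after seeing the data, the log2 ratio of the cytosolic sums was 0.38 in place of 0.66.

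Each member was tested in a fit over all 16580 genes with enough counts (edgeR's quasi-likelihood test, Benjamini-Hochberg adjusted p under 0.05 over all of them, called higher or lower below). Of the 29 cytosolic members, 16 were higher in mESCs, 6 were lower and 7 did not pass the threshold, where 22.8% of all genes tested were higher and 25.0% lower. Of the 18 ER members, 1 was higher, 12 were lower and 5 did not pass. Of the 4 mitochondrial members, 1 was higher and 3 did not pass. The median log2 fold change was 0.43 over the cytosolic, 0.31 over the mitochondrial and -1.32 over the ER members, and 0.04 over all genes tested. Over all 51 members the count was even, with 18 higher, 18 lower and 15 not past the threshold. In 15 cytosolic and 1 mitochondrial member and 1 ER member every mESC library lay above every MEF library, which held for 25.9% of all genes tested, and in 7 cytosolic and 12 ER members every mESC library lay below, which held for 26.2%.

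The scaling between libraries moves these counts. With library size alone in place of TMM, the median over all genes tested was 0.32 in place of 0.04, a shift of 0.28, and 31.2% of all genes were higher and 20.2% lower in mESCs. On that scale 18 cytosolic members were higher and 3 lower, 2 ER members were higher and 11 lower, and 2 mitochondrial members were higher. Hspa1a, Dnajb1, Cdc37 and Hyou1 lost their calls there, and Dnaja1, Cct5, Hspe1 and Atf4 were called higher. Without mESC 7.46, 10 cytosolic members were higher and 3 lower, and the shares of all genes in that fit are not given here. Among the MEF libraries, MEF 9.18 was the lowest in 26 of the 51 members and MEF 7.31 the highest in 25. The study calls its transcriptional samples biological replicates, with fewer for MEFs than the libraries used here. Whether the libraries of one cell type came from separate cultures or embryos is not given in the sources used here, so the p-values measure only the spread between these libraries.

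**Figure D2:**
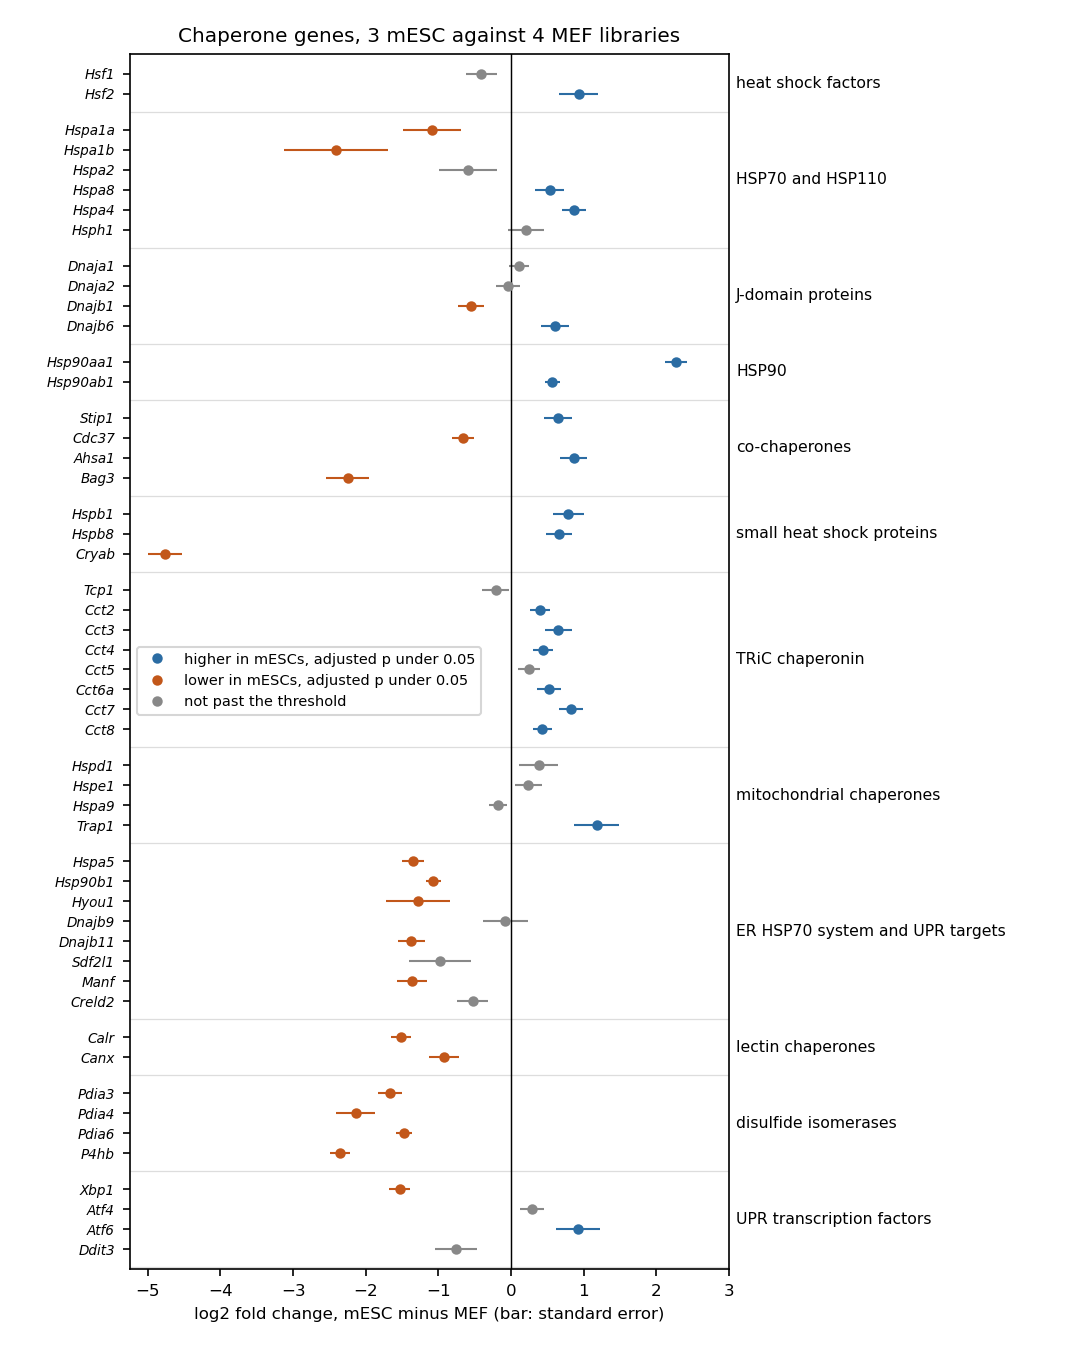
Log2 fold change of each of the 51 chaperone genes, mESC minus MEF (horizontal axis; bars are standard errors of the fit over 4 MEF and 3 mESC libraries), grouped by role from top to bottom. Cytosolic points spread to both sides, from Cryab at -4.76 to Hsp90aa1 at 2.27, and the ER points from Hspa5 to P4hb all lie below 0.

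The heat shock factors, which switch on the cytosolic set, were measured first. Hsf1, the main sensor of heat stress, had 20.1, 18.9, 19.5 and 20.5 CPM in MEFs and 15.1, 16.9 and 12.5 CPM in mESCs. The mESC libraries lay below every MEF library, but the log2 fold change of -0.41 (SE 0.210) did not pass the threshold (edgeR adjusted p = 0.132). Hsf2, a factor that pairs with HSF1 and works in development, had 82.2, 99.4, 90.1 and 61.2 CPM in MEFs and 165, 217 and 93.3 CPM in mESCs. It was 1.90-fold higher (log2 fold change 0.93, SE 0.265, edgeR adjusted p = 0.0141) although the lowest mESC library lay below the highest MEF library, and without mESC 8.06 it was not called (0.63, edgeR adjusted p = 0.0794).

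The HSP70 genes of the cytosol split into constitutive and stress-inducible members. Hspa8, the constitutive HSP70, had 380, 487, 288 and 428 CPM in MEFs and 720, 497 and 493 CPM in mESCs. The mESC libraries lay above the MEF libraries by a narrow margin, 493 against 487 CPM at the nearest, and the log2 fold change of 0.53 (SE 0.197) lay close to the threshold (edgeR adjusted p = 0.0478). It was not called in 5 of the 7 fits with a single library left out, where it ranged from 0.32 without mESC 8.19 (edgeR adjusted p = 0.250) to 0.63 without MEF 7.31 (edgeR adjusted p = 0.0267). Hspa4, an HSP110 protein that exchanges nucleotide on HSP70, had 215, 226, 164 and 166 CPM in MEFs and 314, 336 and 405 CPM in mESCs. It was 1.82-fold higher in mESCs (log2 fold change 0.87, SE 0.163, edgeR adjusted p = 0.00125) and kept its call under every alternative fit apart from the test against a fold change of 2. Its relative Hsph1 had 183, 171, 95.5 and 93.2 CPM in MEFs and 150, 152 and 169 CPM in mESCs, which lay within the MEF range (log2 fold change 0.21, edgeR adjusted p = 0.532).

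The heat-inducible pair Hspa1a and Hspa1b was at low levels in both cell types. Hspa1a had 5.95, 5.18, 4.31 and 4.45 CPM in MEFs and 2.06, 3.18 and 1.77 CPM in mESCs. It was 2.12-fold lower in mESCs (log2 fold change -1.09, SE 0.399, edgeR adjusted p = 0.0441), with an adjusted p between 0.0531 and 0.139 in 6 of the 7 edgeR fits that left out a library, all but that without mESC 8.06. Hspa1b had 13.6, 53.5, 7.43 and 7.95 CPM in MEFs and 5.64, 3.07 and 2.83 CPM in mESCs, so that MEF 7.31 stood far above the others. Its log2 fold change of -2.41 (SE 0.710, edgeR adjusted p = 0.0166) fell to -1.34 without that library (edgeR adjusted p = 0.0258), and its adjusted p was 0.0572 and 0.0585 without mESC 8.06 and without mESC 7.46. Hspa2, best known from the testis, had 31.0, 54.7, 37.1 and 18.6 CPM in MEFs and 19.6, 37.7 and 13.1 CPM in mESCs, with wide overlap (log2 fold change -0.59, edgeR adjusted p = 0.259), and was called lower without mESC 8.06 (-1.11, edgeR adjusted p = 0.0485). As a check on cell handling, 16 immediate early and other rapid response genes were summed: they held 1334, 1284, 1539 and 1377 CPM in MEFs and 1650, 1602 and 1350 CPM in mESCs, with 5 of the 15 tested higher and 5 lower, and their part in the heat-inducible genes was not tested.

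J-domain proteins stimulate the ATPase of HSP70 and bring substrates to it. Dnajb1, the heat-inducible one, had 57.5, 64.0, 48.7 and 63.3 CPM in MEFs and 47.3, 37.3 and 34.9 CPM in mESCs, a log2 fold change of -0.55 (SE 0.179, edgeR adjusted p = 0.0262) that missed the threshold in 4 of the 7 fits with a library left out (MEF 7.31, MEF 6.53, mESC 8.06 or mESC 7.46), at most with an adjusted p of 0.0994 without mESC 7.46. Dnajb6, known to hold back aggregation of polyglutamine proteins, had 286, 279, 203 and 265 CPM in MEFs and 395, 291 and 496 CPM in mESCs. It was higher in mESCs (log2 fold change 0.61, SE 0.191, edgeR adjusted p = 0.0222), with 0.40 and an adjusted p of 0.124 without mESC 7.46, and it was also not called without MEF 9.18 or mESC 8.19 (edgeR adjusted p = 0.0579 and 0.0620). The class A members did not pass the threshold: Dnaja1 had 747 to 992 CPM in MEFs and 859 to 1043 CPM in mESCs, and Dnaja2 had 120 to 157 and 121 to 159 CPM.

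The cytosolic HSP90 genes were both higher in mESCs, and by different amounts. Hsp90aa1, the stress-inducible HSP90 (chromosome 12 of GRCm38, 110690605 to 110702728, minus strand), had 623, 630, 418 and 514 CPM in MEFs and 2539, 2739 and 2631 CPM in mESCs. The lowest mESC library thus lay far above the highest MEF library. From 546 ± 101 to 2636 ± 100 CPM (SD, n = 4 and 3) it was 4.83-fold higher (log2 fold change 2.27, SE 0.148, edgeR adjusted p = 7.34e-07). It was the only higher member that passed the test against a fold change of 2. Hsp90ab1, the constitutive HSP90 (chromosome 17, 45567775 to 45573271, minus strand), had 3559, 3307, 3113 and 3164 CPM in MEFs and 4210, 5320 and 5137 CPM in mESCs, a 1.49-fold difference (log2 fold change 0.57, SE 0.107, edgeR adjusted p = 0.00124). The ratio of Hsp90aa1 to Hsp90ab1 counts within a library was 0.166 ± 0.0238 in MEFs and 0.543 ± 0.0517 in mESCs (SD, n = 4 and 3), a log2 difference of 1.72 (two-sided exact permutation test over 35 regroupings, p = 0.0286, the smallest that 4 against 3 libraries allow, and 0.0476 after Benjamini-Hochberg adjustment over 10 ratios).

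**Figure D3:**
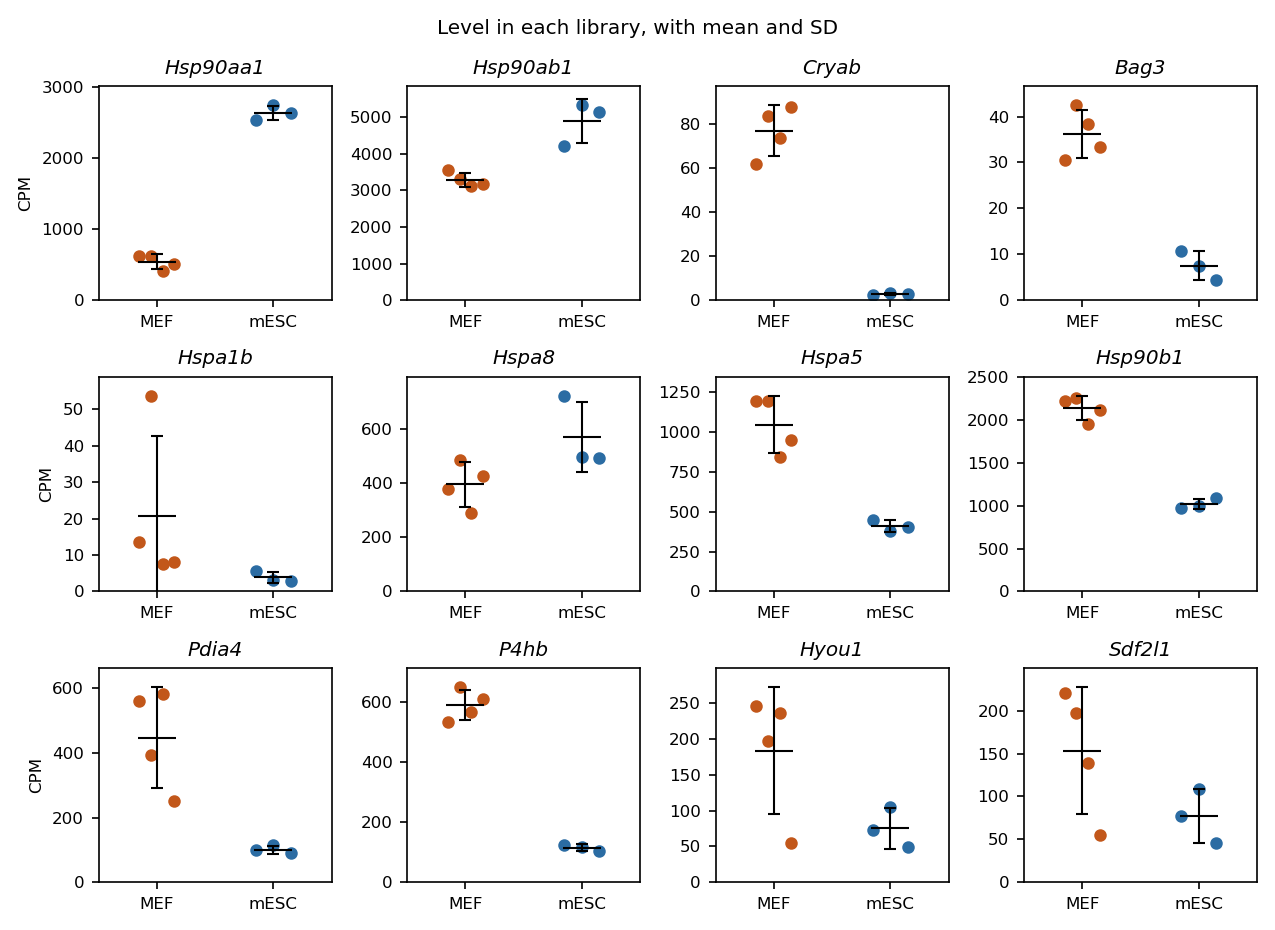
Level of 12 of the chaperone genes in each library (points; vertical axes, CPM from 0), with the mean and SD of 4 MEF and 3 mESC libraries (bars; the lower end for Hspa1b runs below the axis). Hsp90aa1 rises from 418 to 630 CPM in MEFs to 2539 to 2739 CPM in mESCs, Cryab and P4hb lie far lower in mESCs, and single MEF libraries stand apart for Hspa1b (53.5 CPM) and Hyou1 (55.5 CPM).

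The co-chaperones among the members, of HSP90 and of HSP70, did not share a direction. Stip1, which bridges HSP70 and HSP90, had 200, 236, 140 and 144 CPM in MEFs and 290, 277 and 278 CPM in mESCs (log2 fold change 0.65, SE 0.190, edgeR adjusted p = 0.0166), with an adjusted p of 0.0561 without mESC 8.19. Ahsa1, which stimulates the HSP90 ATPase, had 61.3, 61.7, 41.3 and 46.3 CPM in MEFs and 103, 93.7 and 91.3 CPM in mESCs and was 1.82-fold higher (log2 fold change 0.86, SE 0.180, edgeR adjusted p = 0.00238). Cdc37, which loads kinases onto HSP90, went the other way, with 220, 239, 169 and 221 CPM in MEFs and 143, 127 and 134 CPM in mESCs. Its log2 fold change was -0.66 (SE 0.154, edgeR adjusted p = 0.00497), and on library size alone it was not called. Bag3, a nucleotide exchange factor of HSP70 that feeds selective autophagy, had 30.5, 42.4, 38.3 and 33.4 CPM in MEFs and 10.8, 7.39 and 4.48 CPM in mESCs. It was 4.76-fold lower in mESCs (log2 fold change -2.25, SE 0.301, edgeR adjusted p = 1.29e-04), with no overlap between the cell types.

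The small heat shock proteins held the widest spread of any role. Cryab, the alpha-B crystallin of lens, muscle and other tissues (chromosome 9 of GRCm38, 50751325 to 50756636, plus strand), had 62.2, 84.0, 73.8 and 88.1 CPM in MEFs and 2.38, 3.18 and 2.95 CPM in mESCs. From 77.0 ± 11.6 to 2.84 ± 0.410 CPM (SD, n = 4 and 3) it was 27.0-fold lower in mESCs (log2 fold change -4.76, SE 0.231, edgeR adjusted p = 1.06e-07), the largest difference among the 51 members. Hspb8, the partner of BAG3, had 24.5, 30.5, 29.0 and 22.6 CPM in MEFs and 45.0, 41.1 and 40.0 CPM in mESCs, and was higher (log2 fold change 0.66, SE 0.178, edgeR adjusted p = 0.0107). Hspb1, known as HSP25, had 40.0, 41.2, 24.2 and 35.5 CPM in MEFs and 68.0, 50.8 and 64.1 CPM in mESCs, a log2 fold change of 0.79 (SE 0.211, edgeR adjusted p = 0.00987). Of the 6 muscle markers, 4 were tested and 2 were lower in mESCs, and their part in the level of Cryab was not tested.

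All 8 genes of the TRiC chaperonin, which encode the 8 different subunits of its rings, were measured, and 6 of them were higher in mESCs. Cct7 differed most, with 334, 334, 213 and 264 CPM in MEFs and 511, 494 and 522 CPM in mESCs (log2 fold change 0.83, SE 0.165, edgeR adjusted p = 0.00178). Cct2 had 401, 399, 290 and 338 CPM in MEFs and 467, 453 and 494 CPM in mESCs (0.40, SE 0.141, edgeR adjusted p = 0.0373). Cct3, Cct4, Cct6a and Cct8 had log2 fold changes of 0.65, 0.44, 0.52 and 0.43, and in these 6 genes no mESC library lay below a MEF library. Tcp1 had 61.6 to 65.6 CPM in MEFs and 39.3 to 63.2 CPM in mESCs and Cct5 had 226 to 304 and 287 to 341 CPM, and neither passed the threshold (edgeR adjusted p = 0.391 and 0.214). The 8 genes summed to 2287 ± 352 CPM in MEFs and 3224 ± 183 CPM in mESCs (SD, n = 4 and 3), 1.41 times as much. MEF 9.18 was the lowest MEF library in 7 of the 8 genes, and without it Cct2 and Cct4 were not called (0.31 and 0.36, edgeR adjusted p = 0.0876 and 0.0508). Without mESC 7.46 Cct2, Cct3, Cct6a and Cct8 were not called (0.36, 0.57, 0.43 and 0.35, edgeR adjusted p = 0.116, 0.0608, 0.0945 and 0.0866). The calls of Cct2 and Cct4 were also lost without mESC 8.06, those of Cct2 and Cct6a without mESC 8.19, and that of Cct2 without MEF 6.53 (edgeR adjusted p = 0.0607 to 0.0919).

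In the mitochondria, Hspd1 and Hspe1 encode the HSP60 chaperonin and its lid, HSP10. They are neighbours on opposite strands of chromosome 1. From the RefSeq start sites at 55087932 for Hspd1 and 55088148 for Hspe1, 216 bases apart, they are read away from each other. Hspd1 has a further RefSeq window (chr1:55088194-55088493, minus strand) that lies past this Hspe1 start, and exons of both genes overlap in GENCODE M21. The stretch between the sites at 55087932 and 55088148 held a heat shock element. It was searched on both strands as GAA, TTC and GAA, or TTC, GAA and TTC, each 2 bases apart. The further window of Hspd1 held no match. Such a match was present in 0.603% of all 32851 promoter windows of this length and in 4 of the 41 members that had a window: Hspe1, Hspd1, Hsph1 and Dnajb6. The windows of the heat-inducible Hspa1a, Hspa1b and Dnajb1 held no match. The search allowed no departure from these letters, and neither a match nor its absence tells whether a factor binds. The window of Hspe1, from 250 bases before to 50 after its start site (RefSeq, GRCm38.p6, chr1:55087898-55088197, plus strand), is shown 5′ to 3′ because both genes share it, with 2 overlapping matches in capitals that begin 89 and 84 bases before the Hspe1 start.
Hspe1: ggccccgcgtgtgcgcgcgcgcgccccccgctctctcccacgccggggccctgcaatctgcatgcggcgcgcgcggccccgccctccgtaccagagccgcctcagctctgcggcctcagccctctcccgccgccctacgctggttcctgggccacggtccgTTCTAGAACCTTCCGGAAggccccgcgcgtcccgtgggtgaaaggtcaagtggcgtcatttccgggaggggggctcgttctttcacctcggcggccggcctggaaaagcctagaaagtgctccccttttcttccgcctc

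Hspd1 had 1041, 538, 471 and 490 CPM in MEFs and 669, 796 and 1010 CPM in mESCs, and Hspe1 had 740, 619, 412 and 468 CPM and 691, 604 and 692 CPM. MEF 11.4 was the highest of all 7 in both genes. Neither gene passed the threshold (log2 fold changes 0.38 and 0.24, edgeR adjusted p = 0.280 and 0.328), and without that library Hspd1 was called higher in mESCs, at 0.72 (edgeR adjusted p = 0.00558). The ratio of Hspe1 to Hspd1 counts was 0.924 ± 0.183 in MEFs and 0.825 ± 0.183 in mESCs (SD, n = 4 and 3), a log2 difference of -0.16 that the two-sided exact permutation test did not separate from the spread (p = 0.486, also 0.486 after adjustment over 10 ratios). Hspa9, the mitochondrial HSP70, had 563, 496, 515 and 597 CPM in MEFs and 482, 458 and 500 CPM in mESCs (log2 fold change -0.18, edgeR adjusted p = 0.249). Trap1, the mitochondrial HSP90, had 8.44, 5.49, 6.35 and 10.7 CPM in MEFs and 19.8, 12.6 and 20.3 CPM in mESCs. It was the only called mitochondrial member, 2.27-fold higher with no overlap (log2 fold change 1.18, SE 0.307, edgeR adjusted p = 0.00857).

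For the ER members the promoters are given first. The ER stress element, at which ATF6 and NF-Y are known to bind, was searched on both strands as CCAAT, then 9 bases of any kind, then CCACG. It was present in 0.119% of all 32851 RefSeq promoter windows, in 6 of the 15 ER members with a window, in 0 of 23 cytosolic and in 0 of 3 mitochondrial members. The shorter ER stress element II, ATTGG and CCACG with 1 base between, was present in 0.0365% of all windows and, among the members, in Dnajb11 alone, and the UPR element TGACGTGG was in 0.676% of all windows and in 0 members. A match is a string of letters in this window and not evidence of binding, and 10 members, among them Hyou1 and Manf, had no window in the reference used here.

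The windows of the 6 genes with the ER stress element are shown 5′ to 3′ on the strand of the gene (RefSeq, GRCm38.p6, from 250 bases before to 50 after the start site), because the only members with a match were ER members, although the ER members with the largest differences, P4hb, Pdia4 and Pdia3, had no match. Capitals mark the element on either strand. It begins 65 bases before the start in Hspa5 (chr2:34771840-34772139, plus strand), 212 and 107 bases before in Hsp90b1 (chr10:86705395-86705694, minus), 162 in Calr (chr8:84846882-84847181, minus), 145 in Canx (chr11:50325624-50325923, minus), 98 in Pdia6 (chr12:17266339-17266638, plus) and 126 in Creld2 (chr15:88819396-88819695, plus).
Hspa5: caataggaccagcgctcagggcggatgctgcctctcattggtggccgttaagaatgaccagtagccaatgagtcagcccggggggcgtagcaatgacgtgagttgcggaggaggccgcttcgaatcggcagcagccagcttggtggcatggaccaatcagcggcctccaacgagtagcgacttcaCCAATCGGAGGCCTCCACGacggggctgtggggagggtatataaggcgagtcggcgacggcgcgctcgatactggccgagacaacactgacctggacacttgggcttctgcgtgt
Hsp90b1: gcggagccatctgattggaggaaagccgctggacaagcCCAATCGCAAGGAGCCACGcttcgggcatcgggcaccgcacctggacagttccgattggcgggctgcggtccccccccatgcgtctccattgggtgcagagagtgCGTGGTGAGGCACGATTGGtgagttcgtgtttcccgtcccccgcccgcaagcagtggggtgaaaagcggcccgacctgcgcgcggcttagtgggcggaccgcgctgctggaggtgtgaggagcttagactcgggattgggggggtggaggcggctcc
Calr: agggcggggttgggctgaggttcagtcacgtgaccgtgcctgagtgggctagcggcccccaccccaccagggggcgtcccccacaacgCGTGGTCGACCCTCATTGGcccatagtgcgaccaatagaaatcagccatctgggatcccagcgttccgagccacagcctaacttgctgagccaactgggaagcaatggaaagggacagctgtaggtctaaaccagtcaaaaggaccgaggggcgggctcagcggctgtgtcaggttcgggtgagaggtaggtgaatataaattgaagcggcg
Canx: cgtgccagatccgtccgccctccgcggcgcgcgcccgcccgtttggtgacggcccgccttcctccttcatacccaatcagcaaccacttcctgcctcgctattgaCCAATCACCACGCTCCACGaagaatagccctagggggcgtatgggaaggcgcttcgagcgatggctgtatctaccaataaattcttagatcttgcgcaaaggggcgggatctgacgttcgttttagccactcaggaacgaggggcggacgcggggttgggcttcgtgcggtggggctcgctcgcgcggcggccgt
Pdia6: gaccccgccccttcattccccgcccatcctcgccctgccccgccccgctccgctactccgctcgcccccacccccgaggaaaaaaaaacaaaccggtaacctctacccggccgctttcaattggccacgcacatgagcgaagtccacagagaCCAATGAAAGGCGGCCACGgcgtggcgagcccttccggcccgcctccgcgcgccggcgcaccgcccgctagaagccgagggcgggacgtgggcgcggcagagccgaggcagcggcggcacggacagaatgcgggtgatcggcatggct
Creld2: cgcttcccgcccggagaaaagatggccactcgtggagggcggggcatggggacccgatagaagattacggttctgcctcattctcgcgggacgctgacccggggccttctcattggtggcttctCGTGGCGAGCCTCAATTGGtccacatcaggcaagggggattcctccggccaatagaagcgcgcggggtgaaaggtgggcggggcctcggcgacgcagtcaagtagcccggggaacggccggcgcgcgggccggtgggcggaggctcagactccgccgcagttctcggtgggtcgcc

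Of these 6 genes, 5 were lower in mESCs, and Creld2 did not pass the threshold, while of the 9 ER members whose window had no match 5 were lower as well (Dnajb11, P4hb, Pdia3, Pdia4 and Xbp1), against 25.0% of all genes tested. Hspa5, the ER HSP70 known as BiP (chromosome 2, 34771970 to 34777547, plus strand), had 1195, 1192, 842 and 946 CPM in MEFs and 450, 376 and 404 CPM in mESCs. It was 2.55-fold lower in mESCs with no overlap (log2 fold change -1.35, SE 0.155, edgeR adjusted p = 4.37e-05). Hsp90b1, the ER HSP90 known as GRP94, had 2222, 2257, 1950 and 2121 CPM in MEFs and 976, 995 and 1092 CPM in mESCs, 2.09-fold lower (log2 fold change -1.07, SE 0.106, edgeR adjusted p = 1.53e-05). Within libraries, the ratio of Hspa5 to the cytosolic Hspa8 was 2.68 ± 0.429 in MEFs and 0.734 ± 0.0988 in mESCs, and that of Hsp90b1 to Hsp90ab1 was 0.651 ± 0.0299 and 0.210 ± 0.0225 (SD, n = 4 and 3). Both ratios separated the cell types completely (two-sided exact permutation test, p = 0.0286 each, 0.0476 after adjustment over 10 ratios), with log2 differences of -1.86 and -1.63. Counts were not divided by gene length, so such ratios are read between libraries and not as amounts of one RNA per other.

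The partners of BiP were lower or spread widely. Dnajb11, an ER J-domain protein, had 138, 161, 138 and 103 CPM in MEFs and 57.8, 49.1 and 49.9 CPM in mESCs (log2 fold change -1.37, SE 0.181, edgeR adjusted p = 1.18e-04). Manf, a secreted UPR target that binds BiP, had 641, 656, 424 and 424 CPM in MEFs and 210, 173 and 245 CPM in mESCs (log2 fold change -1.36, SE 0.206, edgeR adjusted p = 3.18e-04). Neither overlapped between the cell types. Dnajb9, another J-domain protein of the ER and a target of XBP1, had 29.5, 18.8, 27.0 and 20.7 CPM in MEFs and 24.1, 12.3 and 31.9 CPM in mESCs and did not pass (log2 fold change -0.08, edgeR adjusted p = 0.857).

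In 3 UPR targets of this role MEF 6.53 was the lowest MEF library. Hyou1, the ER HSP110, had 246, 197, 235 and 55.5 CPM in MEFs and 72.3, 105 and 48.7 CPM in mESCs, Sdf2l1, a partner of BiP, had 221, 197, 139 and 54.9 CPM and 77.1, 109 and 45.9 CPM, and Creld2 had 78.7, 81.6, 59.3 and 44.2 CPM and 45.7, 43.1 and 48.1 CPM. It lay among the mESC libraries in each of these genes, far below the other MEF libraries in Hyou1 and Sdf2l1 and nearer to them in Creld2. With it, Hyou1 was called (log2 fold change -1.28, SE 0.443, edgeR adjusted p = 0.0341) and Sdf2l1 and Creld2 were not (-0.98 and -0.53, edgeR adjusted p = 0.0805 and 0.0676). Without it, all of them were called lower in mESCs, at -1.59, -1.27 and -0.69 (edgeR adjusted p = 0.000801, 0.00652 and 0.0100). Leaving out another library ended the call of Hyou1 in 5 of 6 cases, with an adjusted p of up to 0.115 without mESC 7.46. That MEF library was also the lowest in 5 of the 8 genes of this role, and its total was the smallest of the 7; the part of its depth in these values was not tested.

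**Figure D4:**
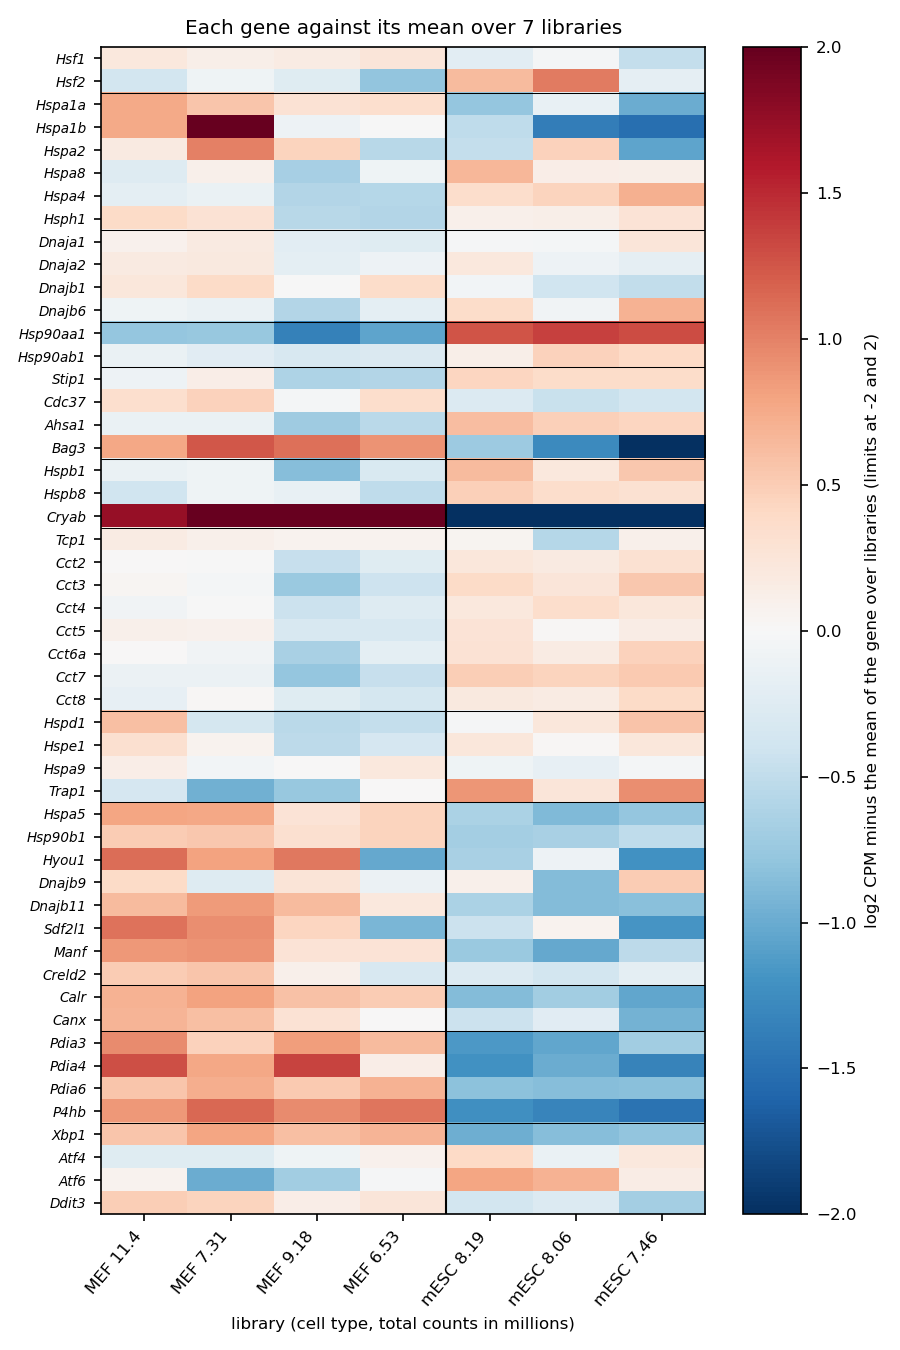
Each of the 51 chaperone genes (rows, by role) in each library (columns, named by cell type and total counts divided by 1000000), as log2 CPM minus the gene's mean over the 7 libraries, with colours limited at -2 and 2. Most ER rows are red in MEFs and blue in mESCs, Dnajb9, Atf4 and Atf6 are not, and MEF 6.53 departs from the other MEFs in Hyou1 and Sdf2l1.

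The lectin chaperones and disulfide isomerases, which fold glycoproteins and form their disulfide bonds, were all lower in mESCs. Calr had 791, 859, 739 and 696 CPM in MEFs and 270, 304 and 238 CPM in mESCs, and its membrane-bound relative Canx had 1633, 1542, 1246 and 1020 CPM and 752, 871 and 527 CPM. Their log2 fold changes were -1.51 (SE 0.137, edgeR adjusted p = 7.81e-06) and -0.92 (SE 0.204, edgeR adjusted p = 0.00341). The ratio of Calr to Canx was also lower, 0.579 ± 0.0823 in MEFs and 0.386 ± 0.0564 in mESCs (SD, n = 4 and 3, log2 difference -0.58, two-sided exact permutation test, p = 0.0286, adjusted 0.0476).

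P4hb, which is the archetypal protein disulfide isomerase and also the beta subunit of the enzyme that hydroxylates collagen prolines (chromosome 11 of GRCm38, 120560298 to 120573253, minus strand), had 535, 650, 567 and 613 CPM in MEFs and 126, 117 and 105 CPM in mESCs. It was 5.09-fold lower (log2 fold change -2.35, SE 0.139, edgeR adjusted p = 3.74e-07), more than any other ER member. Pdia4 had 559, 394, 583 and 252 CPM in MEFs and 99.0, 115 and 90.6 CPM in mESCs, 4.40-fold lower (log2 fold change -2.14, SE 0.274, edgeR adjusted p = 9.52e-05) despite the spread among MEFs. Pdia3, the partner of the lectins, had 770, 553, 717 and 623 CPM in MEFs and 182, 195 and 249 CPM in mESCs (-1.67, SE 0.167, edgeR adjusted p = 1.57e-05). Pdia6 had 997, 1120, 972 and 1096 CPM in MEFs and 384, 373 and 378 CPM in mESCs (-1.47, SE 0.113, edgeR adjusted p = 2.42e-06). No mESC library reached the lowest MEF library in any of these 4 genes. They summed to 2750 ± 128 CPM in MEFs and 805 ± 16.4 CPM in mESCs, 3.42-fold lower. The ratio of the TRiC sum to this sum was 0.658 to 0.952 in MEFs and 3.81 to 4.15 in mESCs, a pair of roles picked after their values were seen. The 10 fibroblast markers, 4 of which are collagen genes, were lower in mESCs as well, and their part in the difference was not tested.

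The transcription factors of the UPR did not share a direction. Xbp1, whose spliced form drives ER chaperones, had 175, 206, 180 and 191 CPM in MEFs and 60.5, 65.9 and 69.1 CPM in mESCs, 2.89-fold lower (log2 fold change -1.53, SE 0.143, edgeR adjusted p = 9.84e-06). These counts are by gene and do not tell the spliced from the unspliced form. Atf6, the membrane-bound factor cut in the Golgi, had 18.2, 8.69, 10.7 and 17.0 CPM in MEFs and 29.9, 28.2 and 19.3 CPM in mESCs and was the only ER member higher in mESCs (log2 fold change 0.92, SE 0.298, edgeR adjusted p = 0.0265). That call was lost in 4 of the 7 fits with a library left out (MEF 7.31, MEF 9.18, mESC 8.19 or mESC 8.06), with a log2 fold change of 0.75 to 0.85 and an adjusted p of 0.0578 to 0.0974. Atf4, the factor of the integrated stress response, had 114, 115, 127 and 144 CPM in MEFs and 179, 124 and 156 CPM in mESCs (0.29, edgeR adjusted p = 0.169). Ddit3, known as CHOP, had 10.4, 10.1, 8.15 and 8.75 CPM in MEFs and 5.74, 6.14 and 4.60 CPM in mESCs, all below the MEF libraries, with a log2 fold change of -0.76 just short of the threshold (SE 0.291, edgeR adjusted p = 0.0510).

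Of the 10 within-library ratios tested, 6 passed the threshold, each with the smallest p the design allows. Their adjusted p of 0.0476 (two-sided exact permutation test) depends on how many of the 10 reached that smallest p. None of them thus passes independently of the others, and the ratios were chosen with earlier results of these data known. The inducible Hspa1a plus Hspa1b relative to Hspa8 was 0.0604 ± 0.0410 in MEFs and 0.0109 ± 0.00163 in mESCs, and Dnajb1 relative to Dnaja1 was 0.0689 ± 0.0106 and 0.0437 ± 0.0105 (SD, n = 4 and 3), log2 differences of -2.26 and -0.67 (two-sided exact permutation test, p = 0.0286 and adjusted 0.0476 for both). The ratios of Hspa2, Hspa9 and Hspb1 to Hspa8 differed by -1.15, -0.70 and 0.28 on the log2 scale and did not pass (two-sided exact permutation test, adjusted p = 0.127, 0.0816 and 0.127). That of Hspa9 did not overlap, though by a narrow margin, with 1.02 to 1.79 in MEFs and 0.67 to 1.01 in mESCs.

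Some members share sequence with near copies, and uniquely mapped reads leave their counts uncertain. Of the 50-base sequences of Hspa8 transcripts, 39.4% also occur in other annotated genes (62.1% in the last 500 bases, where reads of a 3′-biased library fall), most of them in Gm15459, which held 2761 to 6934 counts per library, 103 to 162% of those of Hspa8. Gm15459 was itself higher in mESCs (log2 fold change 0.49, edgeR adjusted p = 0.0209), and Hspa8 and Gm15459 counted together gave 0.50 (SE 0.149, edgeR adjusted p = 0.0166). For Hspb1, with 50.1% shared, Hsp25-ps1 held 221 to 764 counts, 99.1 to 144% of those of Hspb1, and both together gave 0.85 (SE 0.174, edgeR adjusted p = 0.00214). For Hsp90aa1, with 47.5% shared, Gm12346 held 9.75 to 12.7% as many counts, and both together gave 2.28. Hspd1, with 42.1% shared, gave 0.38 together with Hspd1-ps3 (edgeR adjusted p = 0.261). Adding these copies, an alternative chosen after seeing the data, changed no call among the members. Hspa1a and Hspa1b share 66.3 and 62.3% of their 50-base sequences, mostly with each other, and none in their last 500 bases. Dnaja1 shares 20.6% of its sequences and 42.1% in the last 500 bases. Over whole transcripts, Gm15542 holds more of them than any other gene, 10% of the sequences of Dnaja1. Gm15542 had 46 to 114 counts against 4698 to 9678 for Dnaja1, and counts of the other genes that share sequence are not given here. Exons of Hspa1a, Cryab, Hspd1, Hspe1, Hsp90b1, Pdia3, Pdia6, Ddit3 and other members overlap genes on the opposite strand in GENCODE M21, and the strand setting of the counting is not given in the sources used here.

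The wider folding machinery was read from 8 lists with 151 further genes, of which 145 were tested: 26 were higher in mESCs, 61 lower and 58 did not pass, with a median log2 fold change of -0.34, where 22.8% of all genes tested were higher and 25.0% lower. On library size alone, where 31.2 and 20.2% of all genes were higher and lower, 36 were higher and 45 lower, with a median of -0.07. Most genes of the ER folding and degradation lists were lower. Of 29 other ER folding genes tested, 19 were lower and 1 was higher (median -1.13), of 20 genes of ER-associated degradation 15 were lower and 1 higher (median -1.05), and of 22 UPR sensors and integrated stress response genes 8 were lower, 2 higher and 12 not past the threshold (median -0.36). On library size alone these lists had 16 lower and 1 higher, 12 lower and 1 higher, and 6 lower and 5 higher. Fkbp10 and Fkbp7, prolyl isomerases of the ER of which FKBP10 acts on collagen, fell from 173 ± 15.3 to 4.38 ± 2.06 CPM and from 121 ± 28.7 to 9.68 ± 0.954 CPM (SD, n = 4 and 3, log2 fold changes -5.30 and -3.64, edgeR adjusted p = 3.63e-07 and 6.20e-07). Clgn, a relative of calnexin known from the testis, was the exception, with 0 to 1.52 CPM in MEFs and 3.47 to 5.31 CPM in mESCs (edgeR adjusted p = 0.0146).

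In the degradation list, Ube2j1, a ubiquitin-conjugating enzyme of the ER membrane, fell from 87.5 ± 12.1 to 10.2 ± 8.00 CPM (edgeR adjusted p = 1.64e-04), and Derl3 was higher, with 0 to 1.92 CPM in MEFs and 4.12 to 6.84 CPM in mESCs (edgeR adjusted p = 0.0182). Creb3l1, a membrane-bound factor that drives secretory and collagen genes, fell from 47.5 ± 9.40 to 2.61 ± 0.194 CPM (SD, n = 4 and 3, log2 fold change -4.18, edgeR adjusted p = 5.04e-07). Atf5 fell from 185 ± 83.6 to 12.6 ± 6.19 CPM (-3.87, edgeR adjusted p = 5.09e-05). Ddit4 and Ppp1r15a were the 2 higher genes of the stress response list, at 0.92 and 0.62 (edgeR adjusted p = 0.0147 and 0.0427).

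In the cytosol the further lists pointed in different directions. Of 18 other HSP90 co-chaperones, 9 were higher in mESCs and 1 was lower (median 0.51), whereas of 22 other HSP70 cycle genes 5 were higher, a share near that of all genes, and 11 lower (median -0.58). On library size alone the first list had 11 higher and 0 lower and the second 6 higher and 8 lower. Fkbp5, an immunophilin of steroid receptor complexes, rose from 72.1 ± 15.4 to 201 ± 32.5 CPM (log2 fold change 1.48, SE 0.191, edgeR adjusted p = 0.0001), and Ruvbl2, of the R2TP complex, from 4.36 ± 1.72 to 11.9 ± 1.49 CPM (1.43, edgeR adjusted p = 0.00883), while Fkbp8 was lower (-0.55, edgeR adjusted p = 0.0259). Bag2, an exchange factor of HSP70, fell from 46.3 ± 11.9 to 5.22 ± 1.07 CPM (log2 fold change -3.15, edgeR adjusted p = 7.02e-06) and Hspa12b from 8.82 ± 2.39 to 0.526 ± 0.164 CPM, whereas the ribosome-bound Dnajc2 rose from 152 ± 28.3 to 290 ± 41.7 CPM (SD, n = 4 and 3) and Bag4 was higher with a log2 fold change of 1.57.

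Of 7 other genes listed by name alone with the small heat shock proteins, 3 were tested. Of these, 2 were lower (Hspb6 at -2.75 and Hspb11 at -1.52, edgeR adjusted p = 0.000922 and 0.00145). Of 14 prefoldin and chaperonin partner genes, 4 were higher, led by the prefoldin subunits Vbp1 (1.15) and Pfdn1 (0.65), and 4 were lower, led by the tubulin cofactor Tbca (-0.93) and the phosducin-like Pdcl3 (-0.77) and also including the prefoldin subunit Pfdn5 (-0.60, edgeR adjusted p = 0.00887), named after its value was seen. Both counts lie near the shares of all genes, and on library size alone 6 were higher and 1 lower. Of 17 other mitochondrial folding and protease genes tested, 4 were higher, a share near the 22.8% of all genes. Among them were the disaggregase Clpb (0.76) and the import motor partner Dnajc19 (0.69). Only Dnajc15 was lower (-0.62), with 12 not past the threshold and a median of 0.16. On library size alone 6 were higher, where 31.2% of all genes were higher, and 0 lower. Among the genes named from these lists, Ppp1r15a lost its call in 6 and Fkbp8 in 5 of the 7 fits with a library left out, Clgn and Derl3 without mESC 7.46, Dnajc15 without mESC 8.06 and Ddit4 without mESC 8.19. On library size alone Fkbp8, Dnajc15 and Pdcl3 were not called (-0.27, -0.35 and -0.48, edgeR adjusted p = 0.251, 0.141 and 0.0577).

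**Figure D5:**
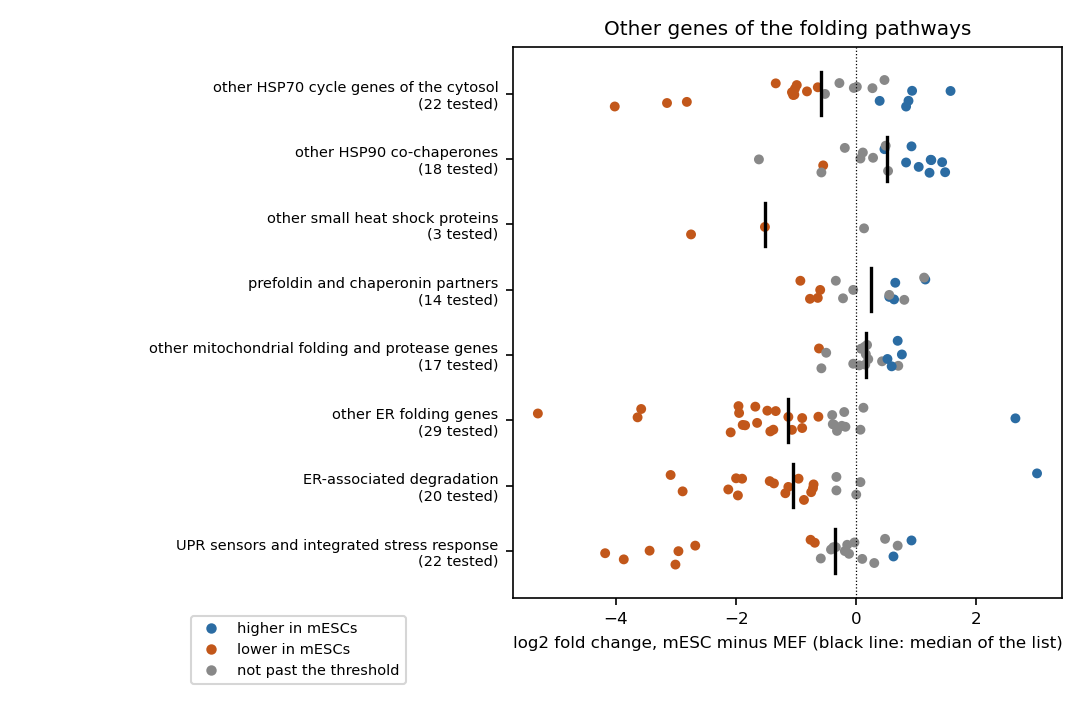
Log2 fold change, mESC minus MEF (horizontal axis), of the 145 tested genes of 8 further folding lists (points, coloured by edgeR call), with the median of each list as a black line. The medians of the ER folding and degradation lists lie at -1.13 and -1.05, and that of the HSP90 co-chaperones at 0.51.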

How the data were processed

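RNA from 4 MEF and 3 mESC samples had been made into 3′-biased libraries with a sample index and a molecular identifier on each read, read on an Illumina instrument. The authors used Sabre and Cutadapt for demultiplexing and trimming, STAR for alignment to mm10 (version 2.4.2a in the submitters' processing notes, a different version in the study's methods), Je to collapse molecular identifiers and featureCounts to count uniquely mapped exonic reads. The deposited values are whole-number counts per gene without normalization. The annotation release and strand setting are not given in the sources used here. Column names give the cell type, a letter of unstated meaning (O in every MEF and Y in every mESC column) and a number that is not stated to be the sample number, so libraries are named by total counts. The number of unused columns of per-sample values was 0. Date-like symbols in 26 rows (0.249% of counts) stayed in the totals and were not reported. Chi-square values per degree of freedom between libraries of a cell type were 15.6 to 31.1, so none were taken as duplicates.

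Genes were tested in edgeR 4.0.16 (with limma 3.58.1 under R 4.3.3) by the quasi-likelihood test. The fit had TMM scaling, the filterByExpr filter, the 7 libraries in 1 model and no covariates, and p-values were adjusted by Benjamini-Hochberg over 16580 genes, with 0.05 as the threshold. Ratios of counts, with 0.5 added to each, were compared by a two-sided exact permutation test over 35 regroupings. Sums and lists are descriptions with no test. On data drawn with 200 changed genes (log2 fold change 2, 16580 genes in all), edgeR found 196 and made 9 false calls, and DESeq2 1.42.0 found 193 and made 8. The draw set the same spread for every gene, so it does not tell how smaller differences or genes with a wider spread are found. It changed 200 genes, whereas in the data 22.8% of all genes tested were called higher and 25.0% lower. How the scaling and the false calls behave with so many differences is therefore not told by the draw. The members, the lists and the tests were chosen with earlier results of these data known. All members were named, and from each further list up to 2 called genes at either end of the log2 fold changes, of which 1 is not reported here. Alternatives were DESeq2, library size only, DESeq2 size factors, other filters, a test against a fold change of 2, a prior count of 0.5 in place of 2, a pseudocount of 0.1, library totals or the median over members for the sums, and each library left out. Chosen after seeing the data were the cytosolic sum without Hsp90aa1 and Hsp90ab1 and the counts of near copies added. Gene models are GENCODE M21 on GRCm38, and promoter windows are RefSeq GRCm38.p6, found for 41 of the 51 members.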

Additional observations from a re-analysis of the deposited data

Results flagged for a closer look

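In groups of 4 libraries, 64 levels and ratios were tested for a library that stands apart, and 4 exceeded the critical value of Dixon's test for 4 values, where chance flags about 1 in 20, or 3.2. Hspd1 was flagged for MEF 11.4, the highest, whose gap to the next was 0.833 of the range. Hyou1 was flagged for MEF 6.53, the lowest, with 0.850. The ratio of Dnajb1 to Dnaja1 was highest in the same library, 0.0847 against 0.0619 to 0.0646 in the other MEF libraries, with 0.865. The ratio of Hspb1 to Hspa8 was highest in MEF 11.4, 0.105 against 0.0828 to 0.0845, with 0.919. Groups of 3 libraries were not tested.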

How the results depend on the processing

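No paired analysis was possible because the count columns carry no number that is stated to be that of the samples. Against a fold change of 2, 1 member was higher (Hsp90aa1) and 10 were lower, in the cytosol 1 and 2, with 0 higher in the mitochondria and 0 in the ER, and in the further lists 2 were higher and 30 lower. The shares of all genes past that test are not given here, so these counts show only which calls held. On library size alone, 3 cytosolic members were lower and 2 mitochondrial and 2 ER members higher, and the uncalled log2 fold changes of Dnaja2, Tcp1, Hspa9 and Dnajb9 turned to 0.24, 0.08, 0.10 and 0.21. With library totals the log2 ratios of the sums were 0.95 for the cytosol, 0.47 for the mitochondria and -0.98 for the ER, against 0.66, 0.19 and -1.26, and the median over cytosolic members gave 0.43 and the sum without Hsp90aa1 and Hsp90ab1 0.38.

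With 1 library left out, the cytosolic count ranged from 10 to 16 higher and 3 to 5 lower, the mitochondrial from 1 to 2 higher and the ER from 0 to 1 higher and 11 to 14 lower. Shares of all genes in those fits are not given here. The uncalled values of Dnaja2 and Dnajb9 ranged from -0.17 to 0.03 and from -0.41 to 0.22. Of 714 log2 fold changes of members under the alternatives, 616 kept direction and side of the threshold, 76 lost the call, 13 gained one and 9 changed sign. In 21 members the call held in the same direction under every alternative except the test against a fold change of 2: Hspa4, Hsp90aa1, Hsp90ab1, Ahsa1, Bag3, Hspb1, Hspb8, Cryab, Cct7, Trap1, Hspa5, Hsp90b1, Dnajb11, Manf, Calr, Canx, Pdia3, Pdia4, Pdia6, P4hb and Xbp1. DESeq2 also called Sdf2l1 and Ddit3 lower. Without a filter beyond 1 count, Hspa1a, Cct2, Cct4 and Cct8 lost their calls and Sdf2l1 and Creld2 gained one, and with 10 counts required in every library of a cell type Hspa8 lost its call and Ddit3 gained one. With 1 library left out the exact permutation test of the ratios cannot go below 0.05, so only their direction was read, and adding Gm15459 to Hspa8 changed no call. The cause of these changes was not tested. Depth limits Hspa1a (15 to 62 counts), Cryab in mESCs (at least 22 counts) and other members with few counts.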
